A study of Mus musculus with 6 samples.

Results

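The genes described here mark cells of the oligodendrocyte lineage, from dividing precursors to the cells that wrap axons in myelin, and they were listed by their known roles, at a time when earlier results of these data were known. All 35 of them were among the 14824 genes of the deposited table, and all 35 passed the filter on low counts that left 13747 genes for testing. They were followed in bulk RNA-seq of the primary somatosensory (S1) cortex, the area that receives input from the whiskers. All 6 samples came from WT animals of the strain given in the labels as C57B6, male according to the methods, at postnatal day 21. In the 3 WS samples the right whiskers had been brushed by hand for 15 min a day over 8 days from postnatal day 14, and tissue was taken 90 min after the last session. The 3 NS samples are labelled as untreated controls. In the scheme of the study the control is the barrel cortex on the side of the brain that received no stimulation, so NS tissue may come from the stimulated mice, and the labels do not say which samples share an animal. The whole S1 cortex was extracted, so neurons, astrocytes, endothelial cells, pericytes, microglia and oligodendrocytes all contributed RNA, and RNA was accepted at an RNA integrity number above 2. In bulk tissue, fewer cells of a type and less RNA per cell cannot be told apart.

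Oligodendrocyte precursors divide in response to PDGF through the receptor encoded by Pdgfra, and leave the cycle to become newly formed oligodendrocytes that express genes such as Enpp6 and Bcas1. The transcription factors Olig1, Olig2, Sox10, Nkx2-2 and Myrf direct this path, and Myrf switches on the genes of myelin in cells that have stopped dividing. Mature cells then make large amounts of Mbp, Mobp, Cnp, Mog and Mag, together with enzymes for the galactolipids of the myelin sheath. In the mouse neocortex this process starts mainly after birth and was still under way at the age sampled, and the growth of precursors and new myelin is known to respond to the activity of neurons. The comparison of WS with NS asks whether repeated sensory input went with a shift among these genes.

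The 6 libraries held between 15660395 and 17276168 counts over the listed genes. The authors deposited each gene as a mean count, an SD and a z-score per library, from which library counts were recovered. Levels are given as CPM, the usual unit of counts relative to library size, after TMM normalization had set the libraries to a common scale, and comparisons within a gene are on this scale. A log2 fold change is WS over NS from edgeR's quasi-likelihood test, with p-values adjusted by the Benjamini-Hochberg method over the 13747 genes.

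The 35 genes had higher fitted levels in WS in 34 cases, and the exception was Bmp4. Their median log2 fold change was 0.19, against 0.0074 for all genes tested, of which 53.02% were above 0. The members' median was close to the median SD of their log2 CPM within a group, 0.218. Of the 35, 0 had an adjusted p under 0.05 (edgeR, Benjamini-Hochberg over all genes, lowest adjusted p = 0.9998), where 0.0291% of all tested genes passed this threshold with a log2 fold change above 1, 0% with one below -1, and 0.0364% in either direction at any fold. At an unadjusted p under 0.05, 3 members were higher in WS (Trf, Olig1 and Apod) and 0 were lower, against 0.866% and 0.327% of all tested genes. DESeq2 gave 4 members higher at an unadjusted p under 0.05 (background 0.479%) and 0 at an adjusted p under 0.05. NS and WS samples of the same replicate number were also taken as pairs, although the labels do not say which samples share an animal. A fit with the number as a block takes this assumed pairing into account. In that fit 14 members had higher levels in WS at an unadjusted p under 0.05 and 0 had lower levels (background 1.38% and 0.386%). After adjustment again 0 passed (edgeR, lowest adjusted p = 0.9999), against 0.0436% of all genes with a log2 fold change above 1 and 0.08% in either direction at any fold. By the number of pairs, 25 of the 35 were higher in WS in 3 of 3 same-numbered pairs and 1 was lower in 3 of 3, against 9.82% and 8.57% of all tested genes. No member can be named as changed after adjustment over all genes.

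**Figure D1:**
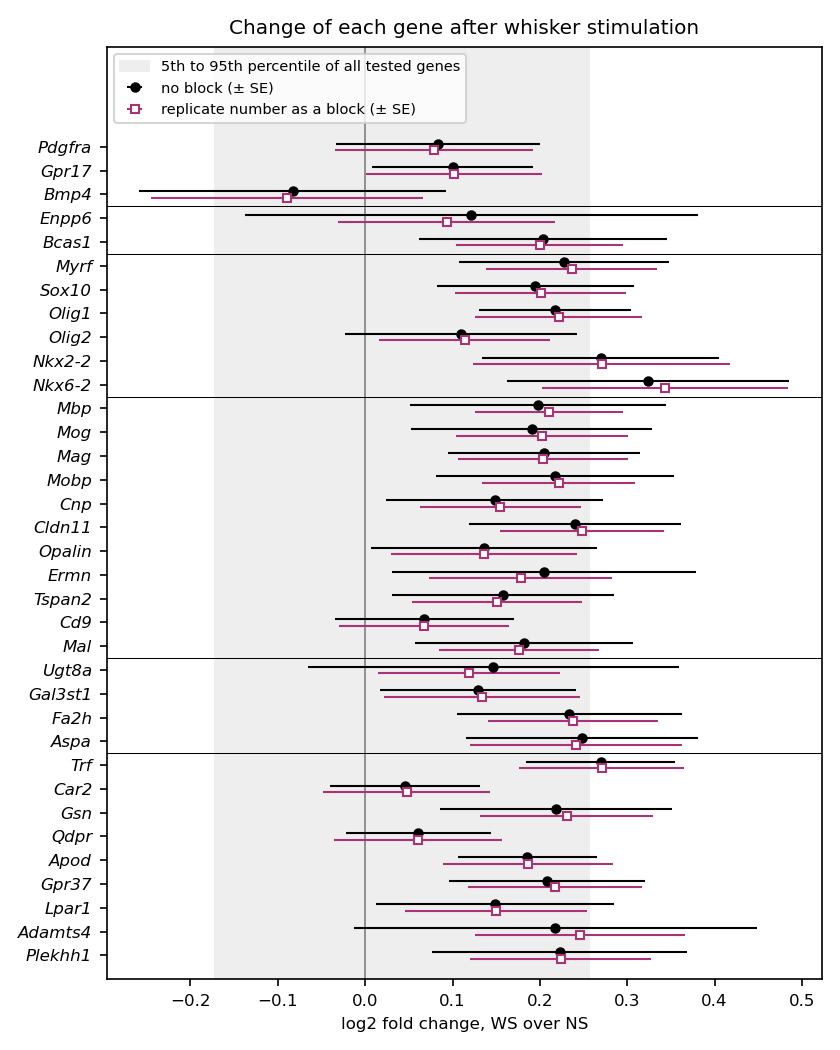
The log2 fold change of each of the 35 genes, WS over NS, is shown with its standard error from edgeR's quasi-likelihood fit without a block (black circles) and with replicate number blocked (open squares). The points of 34 genes lie to the right of 0, most of them inside the grey band that holds the 5th to 95th percentiles of all 13747 tested genes, and the bars of most genes are shorter with the block.

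Libraries of the same group differed among themselves in these genes. NS replicate 1 held the lowest value of 29 of the 35 genes, while it was the lowest library for 15.2% of all tested genes. WS replicate 2 held the highest value of 21 members and WS replicate 3 of 13, against 11.3% and 24.01% of all genes. The SD of log2 CPM within a group had a median of 0.218 over the members and 0.133 over all genes. Each library was left out in turn, as planned. Without NS replicate 1 the median log2 fold change of the members fell to 0.078, with 28 of 35 above 0 and 0 higher at an unadjusted p under 0.05 (edgeR's quasi-likelihood test, background 0.649%). Without WS replicate 1, the lowest of the WS libraries for most myelin genes, the median was 0.285 and 18 members were higher at an unadjusted p under 0.05 in the same test (background 2.27%). Without WS replicate 2 this number was 1 (background 0.866%). With NS replicate 1 and WS replicate 1 left out together, a choice made after seeing the values, the median was 0.168, 34 of 35 were above 0 and 8 were higher at an unadjusted p under 0.05 (background 1.23%).

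**Figure D2:**
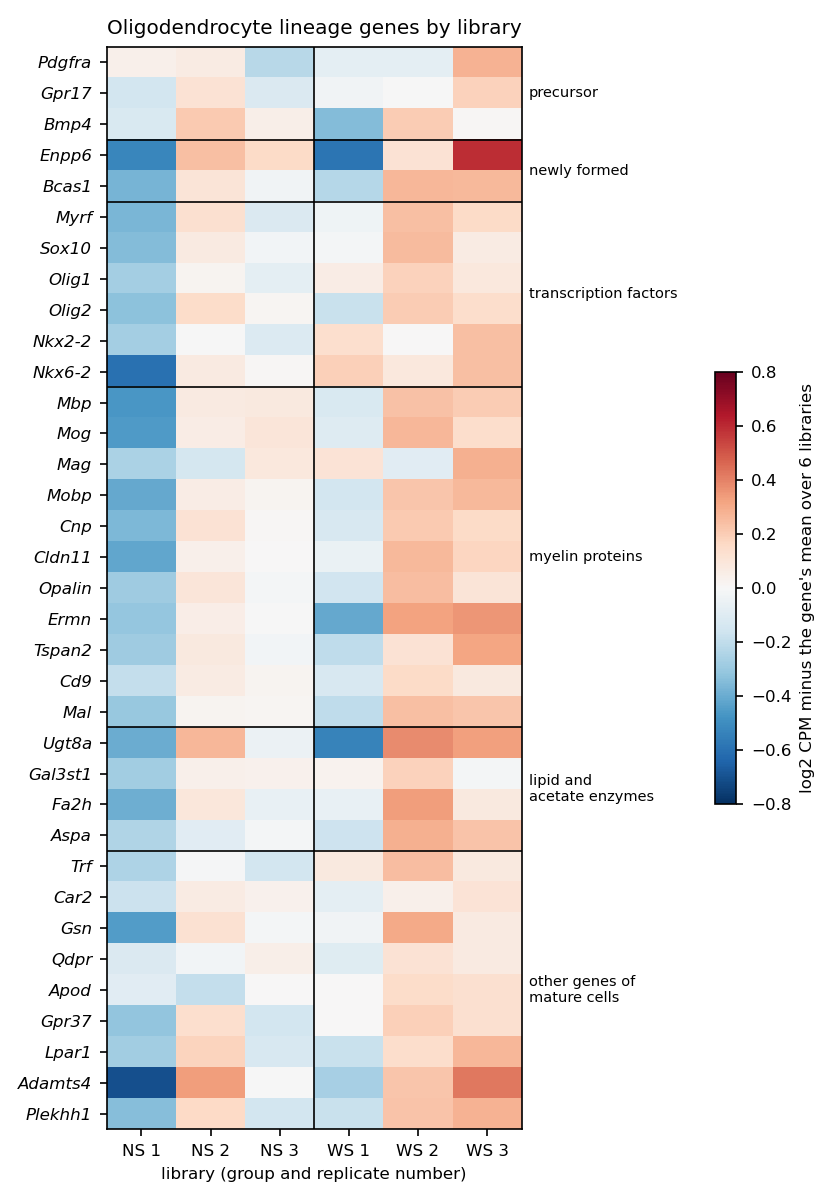
Each row is a gene and each column a library, and the colour is the log2 CPM of that library minus the gene's mean over the 6 libraries. NS replicate 1 is blue in nearly every row, WS replicate 1 is pale or blue in most myelin rows, and WS replicates 2 and 3 are red in most rows.

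Sequence upstream of the genes is shown because Sox10, Myrf and the Olig proteins are known to bind DNA near many of them. RefSeq gave a start site window on GRCm38.p6 for 25 of the 35 genes, and the 250 bases before the start were searched on both strands. The SOX letters ACAAAG or ACAATG occurred upstream of 11 of the 25 genes, and of 28.2% of all 27025 genes with a window. The MYRF letters CTGGCAC or CTGGTAC occurred in 4 of the 25 (background 6.79%), and the E-box letters CAGCTG or CAGATG, of the kind that Olig2 recognizes, in 11 (background 28.2%). Short words like these turn up in many promoters, and a match is a description of the letters, not a binding site. The windows below run 5′ to 3′ on the strand of the gene, end before its annotated first exon, and have the matched letters in capitals. Cnp is shown because it has a single window, which held both a SOX and a MYRF match. Mag and Lpar1, with 3 windows each, also held both. Mobp is shown because it held 6 SOX matches, the highest number in any member. Mog is shown for its MYRF match on the reverse strand, and Pdgfra as a precursor gene, whose window held only an E-box match. Cnp lies on the forward strand with the printed stretch at chr11:100574689-100574903, Mobp on the forward strand at chr9:120149492-120149706, Mog on the reverse strand at chr17:37023399-37023648, and Pdgfra on the forward strand at chr5:75152001-75152250.
Cnp: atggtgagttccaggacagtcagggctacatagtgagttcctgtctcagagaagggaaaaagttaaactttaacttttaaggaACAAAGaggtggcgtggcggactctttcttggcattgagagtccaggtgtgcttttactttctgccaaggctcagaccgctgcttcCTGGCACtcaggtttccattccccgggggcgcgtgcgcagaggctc
Mobp: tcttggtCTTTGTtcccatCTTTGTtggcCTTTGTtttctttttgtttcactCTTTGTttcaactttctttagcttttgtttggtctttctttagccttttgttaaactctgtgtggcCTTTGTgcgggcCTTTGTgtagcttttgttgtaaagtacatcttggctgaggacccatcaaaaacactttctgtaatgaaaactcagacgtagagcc
Mog: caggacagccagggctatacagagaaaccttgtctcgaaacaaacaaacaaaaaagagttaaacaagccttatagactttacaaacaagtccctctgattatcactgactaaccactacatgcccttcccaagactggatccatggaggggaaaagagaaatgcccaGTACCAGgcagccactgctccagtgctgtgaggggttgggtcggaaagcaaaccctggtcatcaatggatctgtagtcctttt
Pdgfra: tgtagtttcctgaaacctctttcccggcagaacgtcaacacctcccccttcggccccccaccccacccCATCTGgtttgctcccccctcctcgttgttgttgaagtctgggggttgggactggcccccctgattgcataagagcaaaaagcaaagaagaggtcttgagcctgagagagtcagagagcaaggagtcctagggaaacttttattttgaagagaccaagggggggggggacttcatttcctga

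The precursor genes were 3 in number. Pdgfra encodes the PDGF receptor alpha (chr5:75152292-75198215 on GRCm38). It had 63.04, 64.3 and 52.5 CPM in the NS libraries, in the order of their replicate numbers, and 58.00, 58.02 and 74.5 CPM in the WS libraries. The highest and the lowest value thus lay in WS and NS replicate 3, and the groups overlapped (log2 fold change 0.08, SE 0.12, unadjusted p = 0.489). Gpr17 encodes a G protein-coupled receptor that appears as precursors commit to differentiation. It stood at 130.5, 156 and 133 CPM in NS and 142, 145 and 164 CPM in WS, replicates 1 to 3 in each. All 6 values of Gpr17 lay within 1.26 times of each other, and the groups again overlapped (log2 fold change 0.10, SE 0.092, unadjusted p = 0.300). Bmp4 encodes a secreted factor that holds precursors back from differentiation, and it is made by the committed precursors themselves as well as by other cells. Its levels were low, with 6.30, 8.05 and 7.14 CPM in NS replicates 1, 2 and 3 and 5.33, 8.04 and 6.95 CPM in WS replicates 1, 2 and 3. Bmp4 was the member with a negative difference (log2 fold change -0.08, SE 0.18, unadjusted p = 0.645), and it was lower in WS in 3 of 3 same-numbered pairs, with a log2 ratio of -0.22 in the first pair and ratios within 0.05 of 0 in the others. None of the precursor genes was higher in WS in 3 of 3 pairs. With libraries left out in turn, Pdgfra had a log2 fold change below 0 without NS replicate 3 or WS replicate 3, and Bmp4 one above 0 without NS replicate 2 or WS replicate 1.

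Among genes of newly formed cells, Enpp6 encodes a choline-specific phosphodiesterase that marks cells just entering differentiation. It had 14.9, 25.6 and 23.98 CPM in the NS libraries, in the order of their replicate numbers, and 14.2, 23.4 and 32.7 CPM in the WS libraries. Its highest value was 2.30 times its lowest, the widest range of the 35 genes, and the difference between groups was small beside it (log2 fold change 0.12, SE 0.26, unadjusted p = 0.647). It was below 0 without NS replicate 1 and without WS replicate 3. Bcas1, which marks the stage at which myelination begins, ran from 139.6 to 194 CPM in NS and from 155 to 218 CPM in WS. It was higher in WS in 3 of 3 same-numbered pairs (log2 fold change 0.20, SE 0.14, unadjusted p = 0.179, and unadjusted p = 0.0467 with the block).

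For the 6 transcription factors the median log2 fold change was 0.22. Without NS replicate 1 it was 0.12, with 5 of the 6 above 0. With all libraries, all 6 were higher in WS in 3 of 3 same-numbered pairs. So were 12 of the 15 genes for myelin proteins and lipid enzymes (9.82% of all tested genes). Olig1, which takes part in the maturation of oligodendrocytes, had 186, 228 and 213 CPM in NS and 234, 256 and 238 CPM in WS, replicates 1 to 3 in each. The lowest WS value of Olig1 was above the highest NS value, although only by a few CPM (log2 fold change 0.22, SE 0.087, unadjusted p = 0.0284). Olig2, its neighbor on chromosome 16 and the factor that specifies the lineage, had 42.3, 58.9 and 53.8 CPM in NS replicates 1, 2 and 3 and 47.04, 61.4 and 58.9 CPM in WS replicates 1, 2 and 3. Here the groups overlapped and the difference was smaller (log2 fold change 0.11, SE 0.13, unadjusted p = 0.423). Without NS replicate 1 the log2 fold change of Olig2 was -0.02.

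Sox10, which is needed for differentiation and activates myelin genes together with Myrf, had 59.01, 79.01 and 74.04 CPM in the NS libraries, in the order of their replicate numbers, and 74.5, 89.6 and 78.6 CPM in the WS libraries. Its groups overlapped (log2 fold change 0.19, SE 0.11, unadjusted p = 0.111). Myrf had 58.9, 83.01 and 70.2 CPM in NS and 74.1, 89.8 and 84.4 CPM in WS, replicates 1 to 3 in each. NS replicate 1 was low and the groups overlapped (log2 fold change 0.23, SE 0.12, unadjusted p = 0.0829, and unadjusted p = 0.0229 with the block). The 2 homeobox factors differed from these in that WS replicate 1 was not low. Nkx2-2, which promotes the step from precursor to differentiating cell, had 7.06, 8.61 and 7.95 CPM in NS replicates 1, 2 and 3 and 9.54, 8.66 and 10.3 CPM in WS replicates 1, 2 and 3. The lowest WS value stood just above the highest NS value, at 140 against 138 counts (log2 fold change 0.27, SE 0.14, unadjusted p = 0.0710). Nkx6-2, which is found in myelinating cells, had 8.57, 13.9 and 13.3 CPM in the NS libraries, in the order of their replicate numbers, and 15.1, 14.04 and 15.7 CPM in the WS libraries. Its groups did not overlap either, and it had the largest log2 fold change of the 35 (0.32, SE 0.16, unadjusted p = 0.0695), which with the block was 0.34 (unadjusted p = 0.0221). Without NS replicate 1 it was 0.13. In all, 5 of the 35 members had their 3 WS values above their 3 NS values (Olig1, Nkx2-2, Nkx6-2, Trf and Apod) and 0 had them below, against 3.11% and 3.16% of all tested genes. On GRCm38 the 5 lie at chr16:91269772-91271933 (Olig1), chr2:147177546-147194243 (Nkx2-2), chr7:139579376-139582797 (Nkx6-2), chr9:103204001-103230444 (Trf) and chr16:31296192-31314808 (Apod).

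The 11 genes for proteins of the myelin sheath held the 5 highest levels per length of the 35 members. Mbp encodes myelin basic protein, which compacts the sheath. It had 3742, 5415 and 5442 CPM in NS and 4732, 6069 and 5944 CPM in WS, replicates 1 to 3 in each. Every WS library was above the NS library of the same number, but WS replicate 1 was below NS replicates 2 and 3 (log2 fold change 0.20, SE 0.15, unadjusted p = 0.203, and 0.21 with SE 0.08 and unadjusted p = 0.0196 with the block). Mobp, another basic protein of compact myelin, had 1052, 1460.0 and 1419 CPM in NS replicates 1, 2 and 3 and 1262, 1635 and 1674 CPM in WS replicates 1, 2 and 3. Again each WS library was above its NS partner while WS replicate 1 was below NS replicates 2 and 3 (log2 fold change 0.22, SE 0.14, unadjusted p = 0.138, unadjusted p = 0.0182 with the block). Without NS replicate 1 the log2 fold change was 0.040 for Mbp, 0.082 for Mobp and 0.020 for Cnp. Cnp encodes an enzyme of the cytoplasmic channels of the sheath. It had 418, 581 and 540.1 CPM in the NS libraries, in the order of their replicate numbers, and 491, 619 and 596 CPM in the WS libraries, with overlapping groups (log2 fold change 0.15, SE 0.12, unadjusted p = 0.255).

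Cldn11 encodes the claudin of the tight junctions between layers of myelin. It had 327, 449 and 438 CPM in NS and 420.2, 522 and 492 CPM in WS, replicates 1 to 3 in each. Only WS replicate 1 of the WS libraries fell within the range of NS, and the difference was among the 6 with the smallest p (log2 fold change 0.24, SE 0.12, unadjusted p = 0.0720, unadjusted p = 0.0132 with the block). Without NS replicate 1 the log2 fold change was 0.11 for Cldn11 and 0.034 for Mog. Mog encodes a glycoprotein on the outer surface of myelin. It had 101, 145 and 149 CPM in NS replicates 1, 2 and 3 and 129.7, 167 and 154 CPM in WS replicates 1, 2 and 3, and the groups overlapped (log2 fold change 0.19, SE 0.14, unadjusted p = 0.192, unadjusted p = 0.0493 with the block).

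Mag, the glycoprotein at the inner face of the sheath next to the axon, followed Mbp, Mobp, Cnp, Cldn11 and Mog less closely from library to library. It had 202, 219 and 256 CPM in the NS libraries, in the order of their replicate numbers, and 260.1, 226 and 294 CPM in the WS libraries. WS replicate 1, low for the genes above, was the second highest for Mag, and WS replicate 2, high for the genes above, was close to NS replicate 2 (log2 fold change 0.20, SE 0.11, unadjusted p = 0.0868, unadjusted p = 0.0464 with the block). With each gene and library set against the mean pattern of the other mature genes described below, Mag departed by 0.28 log2 units in WS replicate 1 and by -0.34 in WS replicate 2, with a root mean square of 0.209 over the 6 libraries. That of Mbp was 0.0645, that of Cnp 0.0364 and that of Mal 0.0337, the lowest of the 35. Other mature genes departed too, by 0.213 for Ugt8a, 0.140 for Ermn and 0.126 for Gal3st1.

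The other myelin proteins were Opalin, Ermn, Tspan2, Mal and Cd9. Their log2 fold changes lay between 0.07 for Cd9, a tetraspanin that other cells express too, and 0.21 for Ermn, a cytoskeletal protein of late myelination, and none had an unadjusted p under 0.05 without or with the block. Mal, a proteolipid of the sheath, had means of 509.6 ± 62.5 CPM in NS and 578 ± 95.02 CPM in WS (SD, n = 3 in both groups).

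The sheath is rich in galactolipids, and 4 members encode enzymes that supply its lipids. Ugt8a makes galactosylceramide, Gal3st1 turns it into sulfatide, Fa2h hydroxylates its fatty acids, and Aspa frees acetate from N-acetylaspartate. Fa2h had the lowest p of these with the block. It had 89.3 ± 14.97 CPM in NS and 105 ± 14.9 CPM in WS (SD, n = 3 in both groups). The groups overlapped (log2 fold change 0.23, SE 0.13, unadjusted p = 0.0955), and an unadjusted p under 0.05 was reached with the block only (edgeR, unadjusted p = 0.0213). Aspa had the largest log2 fold change of the 4, 0.25, and Gal3st1 the smallest, 0.13. Ugt8a was spread widely, from 74.6 CPM in WS replicate 1 to 141 CPM in WS replicate 2 within the same group, and its log2 fold change was below 0 without NS replicate 1 or WS replicate 2.

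Of 9 further genes of mature oligodendrocytes, Trf had the smallest p of all members. It encodes transferrin, the iron carrier that oligodendrocytes make in the brain. It had 177, 209 and 189.8 CPM in NS and 222, 249.5 and 222 CPM in WS, replicates 1 to 3 in each. All WS values were above all NS values, and the difference was of the same size with the block (log2 fold change 0.27, SE 0.085, unadjusted p = 0.00845, and 0.27 with unadjusted p = 0.00832 with the block). Without any given library it stayed between 0.20 and 0.33. The exons of Trf overlap those of the annotated gene model Gm20425 on the same strand over 2108 bases, and how reads in that stretch were assigned is not given in the sources used here.

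Apod encodes a lipid-binding apolipoprotein that is also expressed by fibroblasts of the meninges. It had 139, 129.6 and 149 CPM in NS replicates 1, 2 and 3 and 149, 164 and 162 CPM in WS replicates 1, 2 and 3. WS replicate 1 was above NS replicate 3 by less than 1 CPM (log2 fold change 0.19, SE 0.079, unadjusted p = 0.0382), and with the block the unadjusted p was 0.0670. Unlike most members, Apod was not lowest in NS replicate 1. Gsn, an actin-severing protein, Gpr37, a receptor of maturing cells, and Plekhh1 had log2 fold changes between 0.21 and 0.22 and reached an unadjusted p under 0.05 with the block only. Lpar1, a receptor for lysophosphatidic acid, and Adamts4, a secreted protease, were higher in WS in 2 of 3 pairs each. Adamts4 had 15.8, 32.95 and 25.9 CPM in the NS libraries, in the order of their replicate numbers, and 21.5, 30.4 and 34.9 CPM in the WS libraries, and its difference was small beside this spread (log2 fold change 0.22, SE 0.23, unadjusted p = 0.364). Car2, carbonic anhydrase 2, and Qdpr, an enzyme of biopterin recycling, differed least among this group, with log2 fold changes of 0.05 and 0.06. Both are also expressed outside the lineage.

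Levels of different genes were set side by side only per kb of exon. Mbp was the highest at 575 ± 115 CPM per kb in NS and 659 ± 87.2 in WS (SD, n = 3 in both groups). Cldn11, Mobp, Mal and Cnp came next, between 141 and 216 in NS, and Cldn11, Mobp and Mal were within the SD of their neighbors. Gpr17 stood at 26.96, Pdgfra at 5.98 and Bmp4 at 3.19 CPM per kb in NS. Aspa was the lowest at 2.54 ± 0.206 in NS. These lengths take every annotated exon, so a gene with long exons that few transcripts use is placed too low.

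**Figure D3:**
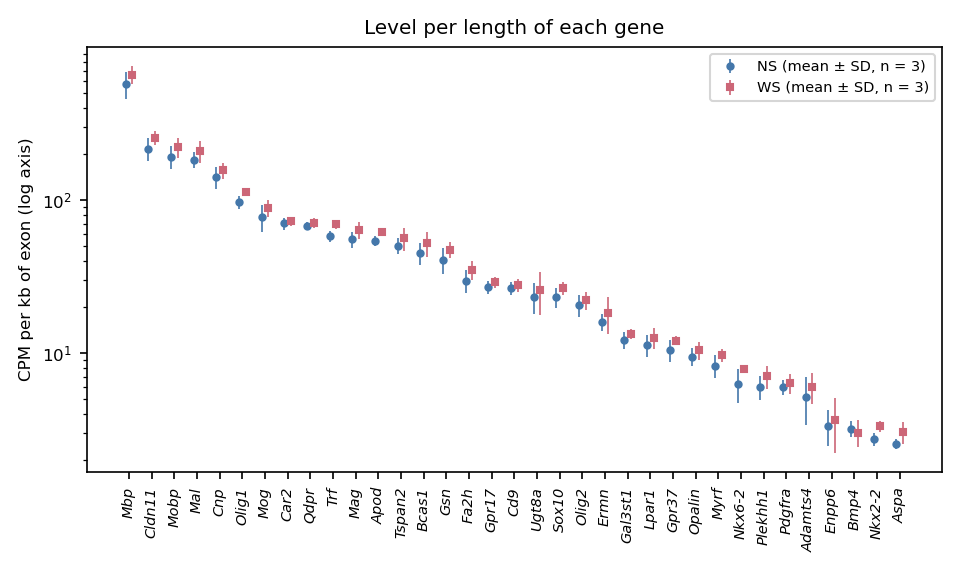
Mean level of each gene in CPM per kb of exon on a log axis, with the SD of 3 libraries, for NS (circles) and WS (squares), ordered by the NS mean. Myelin protein genes fill the left end, precursor genes and several transcription factors lie to the right, and the bars of the groups overlap for most genes.

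To compare stages, the log2 of CPM plus 0.5 was averaged in each library over the 15 genes for myelin proteins and lipid enzymes and over Pdgfra, Gpr17 and Bmp4. The means are given as a description, with no test, because the genes were picked with earlier results of these libraries known. The mature mean was 7.10, 7.49 and 7.45 in NS replicates 1, 2 and 3 and 7.28, 7.66 and 7.63 in WS replicates 1, 2 and 3. The group means were 7.34 ± 0.214 for NS and 7.52 ± 0.209 for WS (SD over 3 libraries). The ranges overlapped, since WS replicate 1 was below NS replicates 2 and 3, yet the WS library exceeded the NS library of the same number by 0.183, 0.168 and 0.180 log2 units in the 3 pairs. The difference between groups, 0.177, was thus smaller than the SD within a group and nearly the same in each pair.

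The precursor mean was 5.26, 5.47 and 5.24 in NS replicates 1, 2 and 3 and 5.19, 5.38 and 5.50 in WS replicates 1, 2 and 3, with group means of 5.32 ± 0.126 for NS and 5.36 ± 0.156 for WS (SD over 3 libraries). Here the pairs went in different directions, by -0.0750, -0.0872 and 0.255 log2 units. The precursor mean minus the mature mean was -2.02 ± 0.185 for NS and -2.17 ± 0.0960 for WS (SD over 3 libraries). The difference, -0.146, was about as large as the pooled SD within groups of 0.147, and it was below 0 in the first and the second pair (-0.258 and -0.255) and above 0 in the third (0.0748). A lower ratio of precursor to mature genes in WS was therefore not separated from the spread of the libraries. With a library left out, the difference in this score kept its sign, between -0.239 without NS replicate 3 and -0.0537 without NS replicate 1.

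**Figure D4:**
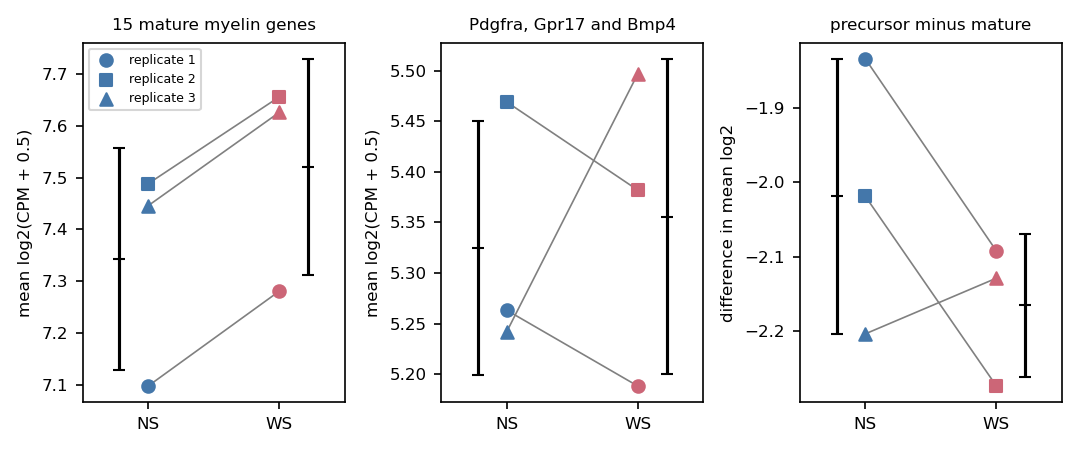
The 3 panels show, for each library, the mean log2(CPM + 0.5) of the 15 mature myelin genes, the same mean for Pdgfra, Gpr17 and Bmp4, and the precursor mean minus the mature mean. Lines join libraries with the same replicate number, black bars are the group mean with SD (n = 3), and the 3 lines rise alike in the mature panel but cross in the others.

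The median log2 fold change of the 15 mature genes moved more with single libraries than with any other setting tried. It was 0.19 with all 6 libraries, 0.061 without NS replicate 1, 0.099 without WS replicate 2 and 0.31 without WS replicate 1. That of the precursor genes was 0.083 with all libraries and ran from -0.047 without WS replicate 3 to 0.14 without WS replicate 1. Without WS replicate 2 the precursor median, 0.12, was the higher one.

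**Figure D5:**
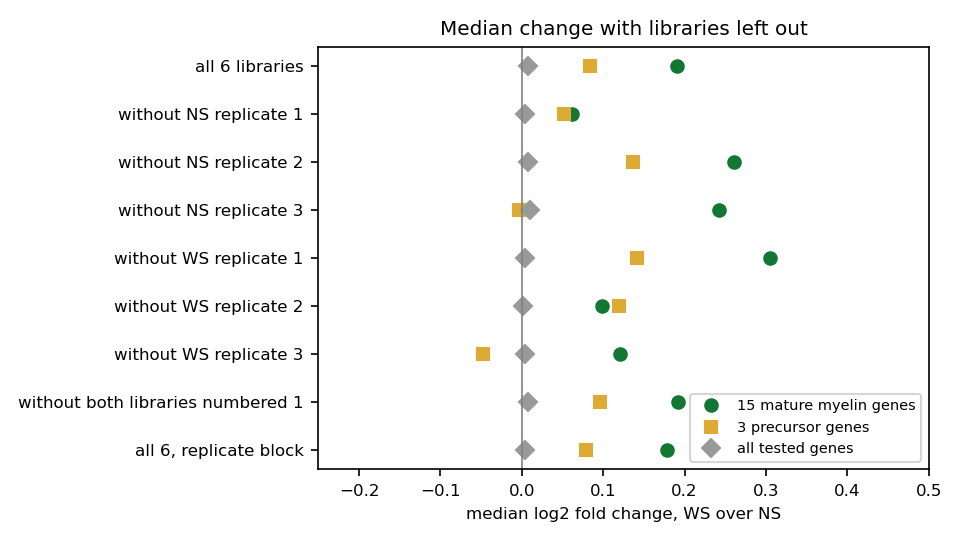
Median log2 fold change, WS over NS, of the 15 mature myelin genes (circles), the 3 precursor genes (squares) and all tested genes (diamonds), with all libraries, with each library left out, without both libraries numbered 1, and with the replicate block. The all-gene medians stay near 0, the mature medians stay above 0 and move between 0.061 and 0.31, and the precursor medians fall on both sides of 0.

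Other genes of the lineage, from lists written by role, were also examined. Of 40 further genes of mature oligodendrocytes 36 had a log2 fold change above 0 with a median of 0.18. Of these 40, 3 had higher levels in WS and 0 lower levels at an unadjusted p under 0.05 (10 and 0 with the block, background 0.866% and 0.327% without it and 1.38% and 0.386% with it), 0 passed after adjustment, and NS replicate 1 was the lowest library for 30 (15.2% over all genes). Of 18 further precursor genes, 17 were above 0 with a median of 0.10 and 1 was higher at an unadjusted p under 0.05. Of 17 genes of newly formed cells 16 were tested, 13 were above 0 (median 0.11) and 0 had an unadjusted p under 0.05. Of 31 ligands, receptors and other signals that act on the lineage 30 were tested, 18 were above 0 (median 0.039) and 0 had an unadjusted p under 0.05 without the block. Over all 104 tested genes of these lists, an unadjusted p under 0.05 was reached by 4 with higher levels in WS and by 0 with lower levels, against 0.866% and 0.327% of all tested genes, and by 12 and 0 with the block, against 1.38% and 0.386%.

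The 4 were Efhd1, Prr18, Gpr62 and Matn4. Efhd1, a mitochondrial calcium-binding protein, had 27.6, 29.5 and 26.6 CPM in NS and 34.1, 33.5 and 31.96 CPM in WS, replicates 1 to 3 in each, with no overlap of the groups (log2 fold change 0.25, SE 0.091, unadjusted p = 0.0181). Prr18 had 47.98, 65.7 and 61.4 CPM in NS replicates 1, 2 and 3 and 68.1, 72.1 and 71.2 CPM in WS replicates 1, 2 and 3, again with no overlap (log2 fold change 0.27, SE 0.11, unadjusted p = 0.0293). Gpr62, an orphan receptor of oligodendrocytes, had 22.3, 22.7 and 21.9 CPM in the NS libraries, in the order of their replicate numbers, and 33.9, 27.6 and 22.4 CPM in the WS libraries. Its WS values were spread, with WS replicate 1 highest and WS replicate 3 inside the range of NS (log2 fold change 0.33, SE 0.13, unadjusted p = 0.0325). Matn4, a matrix protein of precursors, had 10.3, 11.7 and 10.8 CPM in NS and 15.5, 13.9 and 11.3 CPM in WS, replicates 1 to 3 in each, with a similar spread in WS (log2 fold change 0.31, SE 0.13, unadjusted p = 0.0415). None of the 4 had an adjusted p below 0.9998 in edgeR's quasi-likelihood test.

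Markers of the other cells that whole cortex holds are given beside these values, and their part in the results was not tested. Of 10 neuron markers 5 were above 0, with a median of 0.007 on the log2 scale and a summed level of 9456 to 9637 CPM in NS and 9189 to 9529 CPM in WS. Of 10 astrocyte markers 10 were above 0 (median 0.13) with summed levels of 4587 to 5100.2 CPM in NS and 4809.9 to 5935 CPM in WS, where the low NS end is replicate 3, in which the count of Gja1 was far below that of the other libraries. Of 10 microglia markers 9 were above 0 (median 0.099), with 508 to 534 CPM in NS and 540.4 to 559 CPM in WS. Of 10 endothelial markers 10 were above 0 (median 0.10), with 210.2 to 221 CPM in NS and 234 to 271 CPM in WS. Of 8 markers of meninges and fibroblasts, which include the members Pdgfra and Apod, 7 were above 0 (median 0.13), with 364 to 402 CPM in NS and 396 to 455 CPM in WS.

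Markers of neighboring tissue differed between the libraries, and their part was not tested either. Of 10 markers of the striatum, which lies under the cortex beyond the white matter, 10 were above 0 (median 0.18), with 419 to 574 CPM in NS and 413 to 851 CPM in WS. The mean log2 level of this list was lowest in NS replicate 1 and WS replicate 1, the libraries that were also lowest for the mature myelin genes, by -0.46 and -0.40 log2 units from its mean over the 6 libraries, and highest in WS replicate 2, by 0.90. It was also low in WS replicate 3, by -0.33, where the myelin genes were high. Of 10 listed choroid plexus markers 9 were analysed, and the summed levels leave out Ttr. Of the 9, 3 were above 0 (median -0.093), with 495 to 888 CPM in NS and 304 to 1012 CPM in WS. The sum was lowest in WS replicate 1 and highest in WS replicate 2. Of 6 Schwann cell markers, which would mark peripheral myelin, 4 were tested and 4 were above 0 (median 0.14), with 78.9 to 82.9 CPM in NS and 82.4 to 90.9 CPM in WS. Over all listed genes only 1 recovered value was under 0.5 counts, so a marker at 0 could not be seen in this table.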

How the data were processed

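Bulk RNA-seq of S1 cortex was analysed from 3 NS and 3 WS samples. According to the methods and the submitters' processing notes, the authors ran DNBseq, discarded rRNA and low-quality reads and aligned with HISAT2, on mm10. The counting tool and strand setting are not given in the sources used here. The authors deposited for each gene a mean estimated count, its SD, and for each library a standardized score (z-score), the distance from that mean in SD units. A second table of the authors' selected genes, and columns of their fold changes, ratios and p-values, were not used. Counts were computed back as mean plus z-score times SD and rounded. Of the values of 13418 genes given precisely enough, 91.0% came within 0.1 of a whole number. The z-score column for WS replicate 3 carries an altered name, and its assignment rests on the authors' WS mean, which equals the mean of it and the other WS columns. The test had been planned for such counts.

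The counts were fitted with edgeR 4.0.16 (TMM, filterByExpr, quasi-likelihood test, Benjamini-Hochberg adjustment over 13747 genes, limma 3.58.1, R 4.3.3), the call being an adjusted p under 0.05 with a log2 fold change above 1 in either direction. DESeq2 1.42.0, other normalizations, no filter, unrounded counts, a replicate block and leaving out libraries were alternatives. Scripts were checked on simulated counts. Totals of 15660395 to 17276168 counts were taken as depth. Counting error was small beside the coefficient of variation between replicates of 10.1% for highly counted genes such as Mbp. For Bmp4, at 90 to 130 counts a library, it was about as large. No library pair agreed within sampling noise (lowest chi-square per degree of freedom 4.49, over genes with at least 20 counts), so each counted as 1 replicate. The study's legends give 3 male mice for these RNA-seq data and take the side of the brain without stimulation as control, but which NS and WS samples share a mouse is not stated. Replicate numbers come from the sample titles. Deviations from the group means correlated by 0.342, 0.228 and 0.124 (Pearson's r over genes, which are not independent) in pairs of the same number. In the other pairs they correlated by -0.257 to 0.038, so the numbers were taken to pair the samples. By chi-square per degree of freedom, NS replicate 2 was nearest to WS replicate 2 (4.49). NS replicate 3 was nearer to WS replicate 2 (4.84) than to WS replicate 3 (9.75). NS replicate 1 was nearer to WS replicate 2 (7.43) than to WS replicate 1 (10.6). The pairing thus remains an assumption.

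The members and lists were chosen with earlier results of these data known. Values in every library are given for the precursor genes, the main myelin genes and transcription factors, members whose groups did not overlap, the 6 members with the smallest p, and lineage genes outside the members with an unadjusted p under 0.05. Those of Enpp6 and Adamts4 were added after their spread was seen. Exon lengths and positions are from GENCODE M21 on GRCm38. Exons of 16 members overlap those of another gene, so their counts may hold its reads. Promoter windows are from RefSeq (GRCm38.p6). Python 3.11.15, pandas 2.3.3 and Matplotlib 3.10.9 were used. Some items are not reported here.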

Additional observations from a re-analysis of the deposited data

How the results depend on the processing

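No member passed an adjusted p of 0.05 with or without the fold threshold, in edgeR or in DESeq2, under any alternative, and at an unadjusted p 0 members were lower in WS under each of them. All 35 fold changes kept their sign under the other normalizations, without the filter, with unrounded counts, with DESeq2 and with the replicate block. With the block, the members higher at an unadjusted p under 0.05 went from 3 to 14 (12 were gained and Apod was lost) while the share over all genes went from 0.866% to 1.38%, and the other lineage genes from 4 to 12, and the block changed no call of a member or other lineage gene after adjustment. In the lists of other cells, the genes higher at an unadjusted p went from 0 to 1 with the block for astrocytes, striatum and choroid plexus, and numbered 1 of 10 for endothelial cells, 2 of 8 for meninges and fibroblasts and 0 for neurons, microglia and Schwann cells in both fits. Over all genes the adjusted calls with a log2 fold change above 1 went from 4 to 6 and those at any fold from 5 to 11. Without both libraries numbered 1, chosen after seeing the data, 8 members were higher (background 1.23%). With each library left out in turn, the higher members numbered 0 (without NS replicate 1, background 0.649%) to 18 (without WS replicate 1, background 2.27%), and the other lineage genes 0 (without NS replicate 1 or WS replicate 2, the latter with a background of 0.866%) to 21 (without WS replicate 1). Some genes changed sign when a library was left out, and the cause was not tested. The log2 fold change ran from -0.015 (without WS replicate 2) to 0.389 for Ugt8a and was -0.0054 without NS replicate 1. It ran from -0.015 (without NS replicate 1) to 0.220 for Olig2, from -0.20 (without WS replicate 3) to 0.383 for Enpp6, which was -0.084 without NS replicate 1, and from -0.0065 (without NS replicate 1) to 0.147 for Cd9, which was -0.0028 without WS replicate 2. It ran from -0.026 to 0.0968 for Car2 and from -0.025 to 0.473 for Adamts4, lowest without NS replicate 1 for both. It ran from -0.23 (without WS replicate 2) to 0.066 (without WS replicate 1) for Bmp4, which was 0.0088 without NS replicate 2, and from -0.047 (without WS replicate 3) to 0.145 for Pdgfra, which was -0.0038 without NS replicate 3. The precursor minus mature difference was -0.124 from medians over genes, -0.148 with 24 mature genes and -0.143 with a pseudocount of 1, against -0.146. With 3 libraries a group, an exact permutation test of a single value cannot give a two-sided p below 0.1, and Bmp4, Nkx2-2 and Nkx6-2, at about 90 to 255 counts a library, carry more counting error than the myelin genes.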
